A study of Mus musculus with 36 samples.

Results

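The genes described here are 32 genes of the p53 pathway, taken by name from a count table of 51734 gene symbols. They are Trp53, which encodes p53, its relative Trp73 and 3 genes that feed back on p53, together with 6 genes of the cell cycle, 11 of apoptosis, 5 of DNA repair and nucleotide supply and 5 of stress and metabolism. All 32 symbols were found, and all 32 were among the 20511 genes that passed the filter on low counts and were tested. The rule that takes them uses no measured value.

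The transcription factor p53 is kept low in unstressed cells by the ubiquitin ligase MDM2 and by its partner MDM4, and it accumulates mainly through protein stability after DNA damage, nucleolar stress or activation of an oncogene. It then binds pairs of short DNA elements, called half-sites, near genes that stop the cell cycle, promote apoptosis, repair DNA or restrain growth, and Mdm2 itself is among these targets. Mouse embryonic stem cells hold abundant p53 and divide rapidly, and in many cell types a rise of p21, the product of Cdkn1a, leads to repression of mitotic genes through the DREAM complex.

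Messenger RNA was sequenced from the mouse embryonic stem cell line E14 (ESC) and from neural precursors (NPC) that were made from it with retinoic acid (RA). The study compared cells with and without catalytically active MLL3 and MLL4, and the set analysed here added a line for MLL2. These 3 proteins are histone H3K4 methyltransferases, which act at enhancers (MLL3, MLL4) and at promoters (MLL2). The 18 libraries formed 6 groups of 3 replicates. WT cells were wild type, the line named MLL3/4 dCD (dCD below) has no MLL3 and MLL4 catalytic activity, and the line named MLL2 dTAG (MLL2dTAG below) carries a degron on MLL2, a tag that lets the compound dTAG-13 direct the protein to degradation. Each genotype was measured as ESC and as NPC. The labels list dTAG-13 for every library, WT and ESC included, at 2 µM, added on day 1 of NPC differentiation with harvest on day 4. For ESC the sources used here give no time of exposure. Since every genotype is a separate line, the edit and other differences between the lines cannot be told apart. The labels do not say whether replicates were separate cultures, so p-values measure the spread between these libraries, which may be technical.

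Library totals were 19.4 to 46.0 M counts, of which 84013 to 155755 counts per library fell on the 32 genes. All 18 libraries were nearest to a library of their own group, and the biological coefficient of variation was 4.01%. ESC WT replicate 2 stood apart: the chi-square of counts per degree of freedom was 10.5 and 8.42 in its pairs with replicates 1 and 3. All other replicate pairs gave 2.18 to 4.44. This library is in the WT group of both ESC comparisons, both stage differences and WT differentiation. Summed ESC and neural progenitor markers followed the 2 stages, and neuron markers did not: 8 ESC markers summed to 2661 to 3526 CPM (counts scaled to a common library total) in ESC and to 43.3 to 170.2 CPM in NPC, with Dppa3 at 0 in NPC. The ESC markers were Pou5f1, Nanog, Zfp42, Esrrb, Sox2, Klf4, Tfcp2l1 and Dppa3. Within NPC, these 8 summed to 43.3 to 43.8 CPM in WT, 66.9 to 72.5 in dCD and 167.9 to 170.2 in MLL2dTAG. Of the 8 neural progenitor markers (Pax6, Nes, Sox1, Zic1, Olig2, Hes5, Neurog2 and Fabp7), 2 averaged under 1 CPM in every NPC group. These markers summed to 150.5 to 153.7 CPM in NPC WT, 317 to 352 in dCD and 209 to 212 in MLL2dTAG, against 64.9 to 87.4 in ESC. In the same order, 6 mesenchymal markers gave 692 to 712, 887 to 972 and 1033 to 1047 CPM, 6 endoderm markers gave 402 to 418, 290.0 to 296 and 790.4 to 811 CPM, and 5 neuron markers gave 250 to 254, 375 to 404 and 240.5 to 255 CPM. In ESC WT the mesenchymal, endoderm and neuron markers gave 464 to 579, 58.6 to 61.1 and 346 to 422 CPM, so the neuron markers were higher in ESC WT than in NPC WT. The 3 blood markers also differed between the NPC groups, with 4.98 to 5.34 CPM in WT, 9.45 to 10.3 in dCD and 20.4 to 22.2 in MLL2dTAG, against 23.1 to 26.0 in ESC WT, while Ptprc was at 0 in NPC. Thus the NPC groups differed in their mixture of markers, and its part in the results below was not tested. Bulk RNA cannot tell fewer cells of a type from less RNA per cell.

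The promoters of these genes are shown first because p53 acts on DNA sequence. RefSeq promoters (build GRCm38.p6), each running from 250 bases before a transcription start to 50 after it, were given for 24 of the 32 genes, in 34 promoters. The p53 half-site was searched on both strands (its pattern reads the same on either), and occurrences may overlap. Only exact matches to the pattern RRRCWWGYYY were counted (R is A or G, W is A or T, Y is C or T). Elements with a mismatch were neither counted nor marked. An exact half-site was present in 10 of the 24 genes (41.7%) and in 2582 of 27025 genes of the whole table (9.55%). Counted by promoter, it was in 11 of the 34 (32.4%) and in 2745 of 32851 (8.36%). A full site, defined as 2 half-sites with 0 to 13 bases between them, was found in 24 of 32851 promoters (0.0731%), and the upstream promoter of Cdkn1a was one of them. The sequence below gives the 250 bases before the upstream Cdkn1a start, 5′ to 3′, with the exact half-sites in capitals. These half-sites begin 73 and 51 bases before the start and are 12 bases apart. The bases tgacatgttc directly after the second half-site miss the pattern at their first base and were not marked.
Cdkn1a, chr17:29090729-29090978 (plus strand): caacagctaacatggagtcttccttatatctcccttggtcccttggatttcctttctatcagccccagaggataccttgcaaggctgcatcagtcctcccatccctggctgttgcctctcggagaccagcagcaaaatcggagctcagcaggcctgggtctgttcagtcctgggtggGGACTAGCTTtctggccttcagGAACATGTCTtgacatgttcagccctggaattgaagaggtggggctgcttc
The 9 other genes with a half-site are given as windows of 30 bases, each read along the strand of its gene with the half-site in capitals, so that the differences between the elements can be seen.
Mdm2, chr10:117710925-117710954 (minus strand): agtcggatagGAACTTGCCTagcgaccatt
Ccng1, chr11:40755452-40755481 (minus strand): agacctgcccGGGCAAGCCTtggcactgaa
Bax, chr7:45467080-45467109 (minus strand): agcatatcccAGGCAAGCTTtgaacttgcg
Aen, chr7:78895927-78895956 (plus strand): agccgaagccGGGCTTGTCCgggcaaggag
Ei24, chr9:36797325-36797354 (minus strand): cgtgcggcccGGGCATGCCCagtgtgggcg
Ddit4l, chr3:137623572-137623601 (plus strand): caactcccagGGGCTTGCCTgggcccctgc
Sesn1, chr10:41887256-41887285 (plus strand): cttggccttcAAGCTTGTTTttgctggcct
Trp53, chr11:69580274-69580303 (plus strand): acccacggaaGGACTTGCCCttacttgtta
Polk, chr13:96519399-96519428 (minus strand): catgtagcttGAACTAGCCTcaaacttatt
A match is a run of letters and was not tested as a binding site. The lack of an exact match does not show that a gene lacks a p53 site. In NPC dCD, described next, 7 of these 10 genes were higher than in WT, 1 was lower and 2 were not called. Of the 14 genes whose given promoters held no exact half-site, 10 were higher and 4 lower. Over all genes tested, 26.7% were higher and 26.8% lower in dCD NPC. Most genes were thus higher in both sets, and a link between half-sites and the rise was not tested.

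In NPC without MLL3 and MLL4 catalysis, most p53 pathway genes were higher than in WT NPC. Of the 32 genes, 23 rose, 7 fell and 2, Trp53 and Polk, were not called (edgeR quasi-likelihood test, Benjamini-Hochberg adjusted p under 0.05 over all genes tested). Over all genes the same test called 53.5%, with 26.7% higher and 26.8% lower. The 11 apoptosis genes all rose, whichever of 15 alternative settings was used, and 4 of 6 cell cycle genes and 4 of 5 stress and metabolism genes rose, while the repair genes were split with 2 higher and 2 lower. The median log2 fold change of the 32 genes was 0.60, beside -0.017 over all genes tested. At least 2-fold rises were seen in 8 of the 32 genes, which were Gdf15, Perp, Fas, Pmaip1, Btg2, Sesn2, Ddit4l and Cdkn1a, and 7.03% of all genes rose as much. Trp73 alone fell at least 2-fold, as did 4.86% of all genes. In each of the 23 genes that rose the 3 dCD libraries lay above all 3 WT libraries. In each of the 7 that fell they lay below. These genes were picked by their calls on the same libraries, so the separation adds no support to the calls. Over all genes tested, called or not, the groups did not overlap in 29.6% (higher) and 30.5% (lower).

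**Figure D1:**
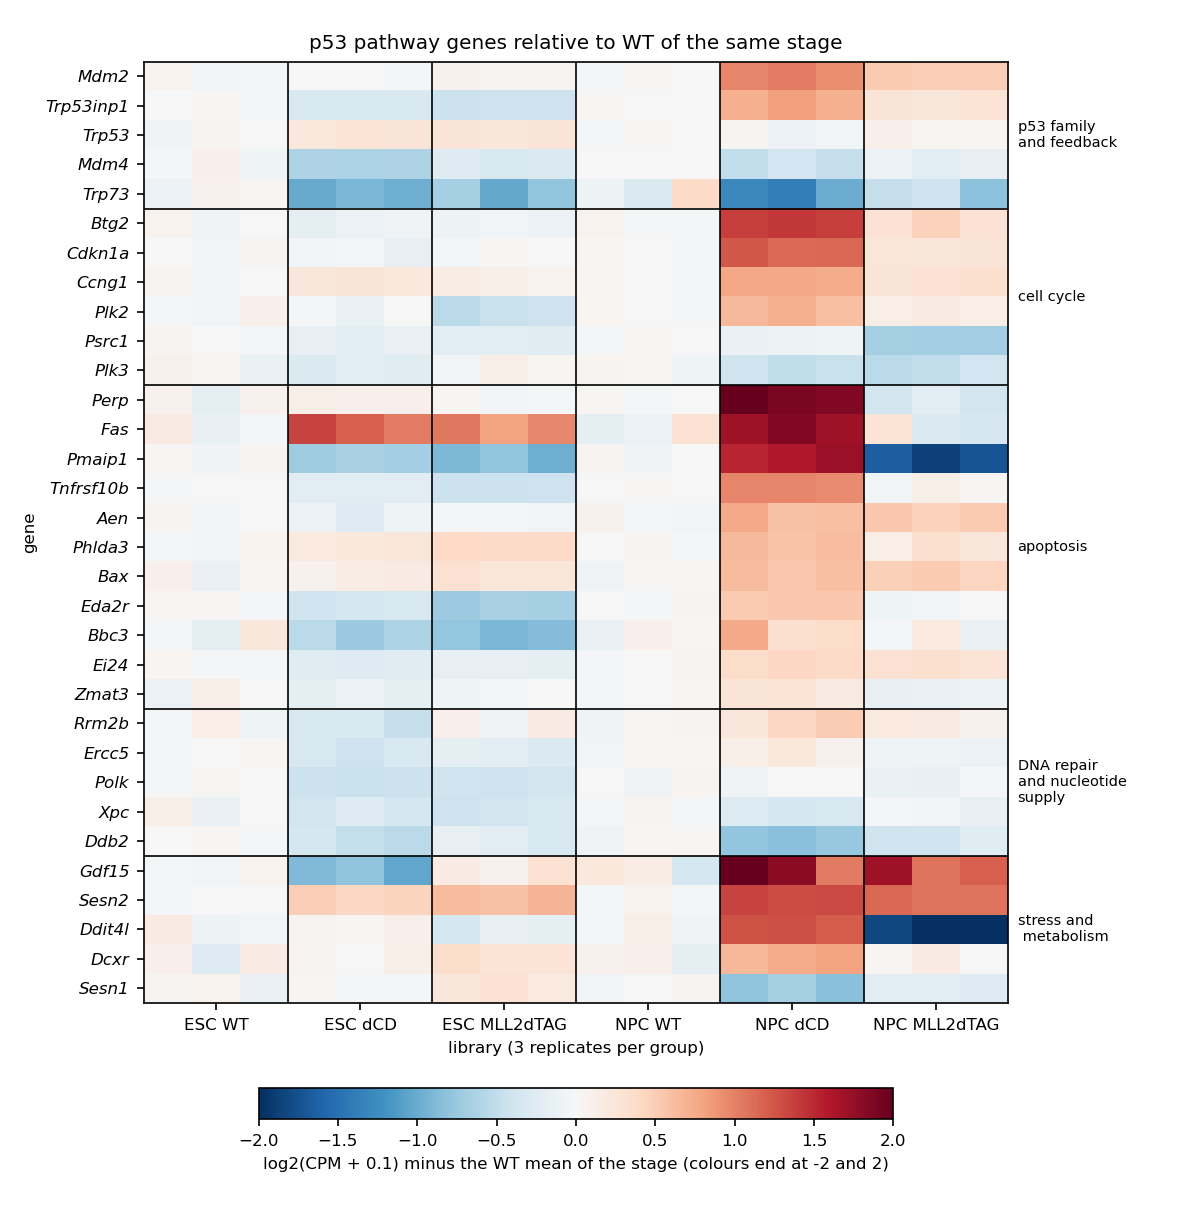
Level of each of the 32 genes (rows, by role) in each of the 18 libraries (columns, 3 per group) as log2(CPM + 0.1) minus the mean of the WT libraries of the same stage; red is higher and blue is lower than WT, and colours end at -2 and 2. The NPC dCD columns are red in 23 of 32 rows, whereas the ESC dCD columns are mostly pale or blue.

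In NPC MLL2dTAG, by contrast, the direction was mixed. Of the 32 genes, 12 rose, 12 fell and 8 were not called, where 61.7% of all genes were called (33.3% higher and 28.4% lower). The median log2 fold change was 0.023, beside 0.028 over all genes. With offsets for GC content and length the split was 14 higher and 8 lower. The 12 that rose were Mdm2, Trp53inp1, Cdkn1a, Btg2, Ccng1, Plk2, Bax, Aen, Ei24, Phlda3, Sesn2 and Gdf15. Both NPC comparisons share their WT libraries, so the lines were also tested against each other: 23 of the 32 genes were lower and 5 higher in MLL2dTAG NPC than in dCD NPC (all genes: 24.3% lower and 31.6% higher, 55.9% called), with a median of -0.43 (all genes: 0.052). Every apoptosis gene was lower in MLL2dTAG than in dCD, although Bax, Aen and Ei24 were lower by 0.15 or less on the log2 scale and each lost its call in 3 to 5 of 15 alternatives.

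**Figure D2:**
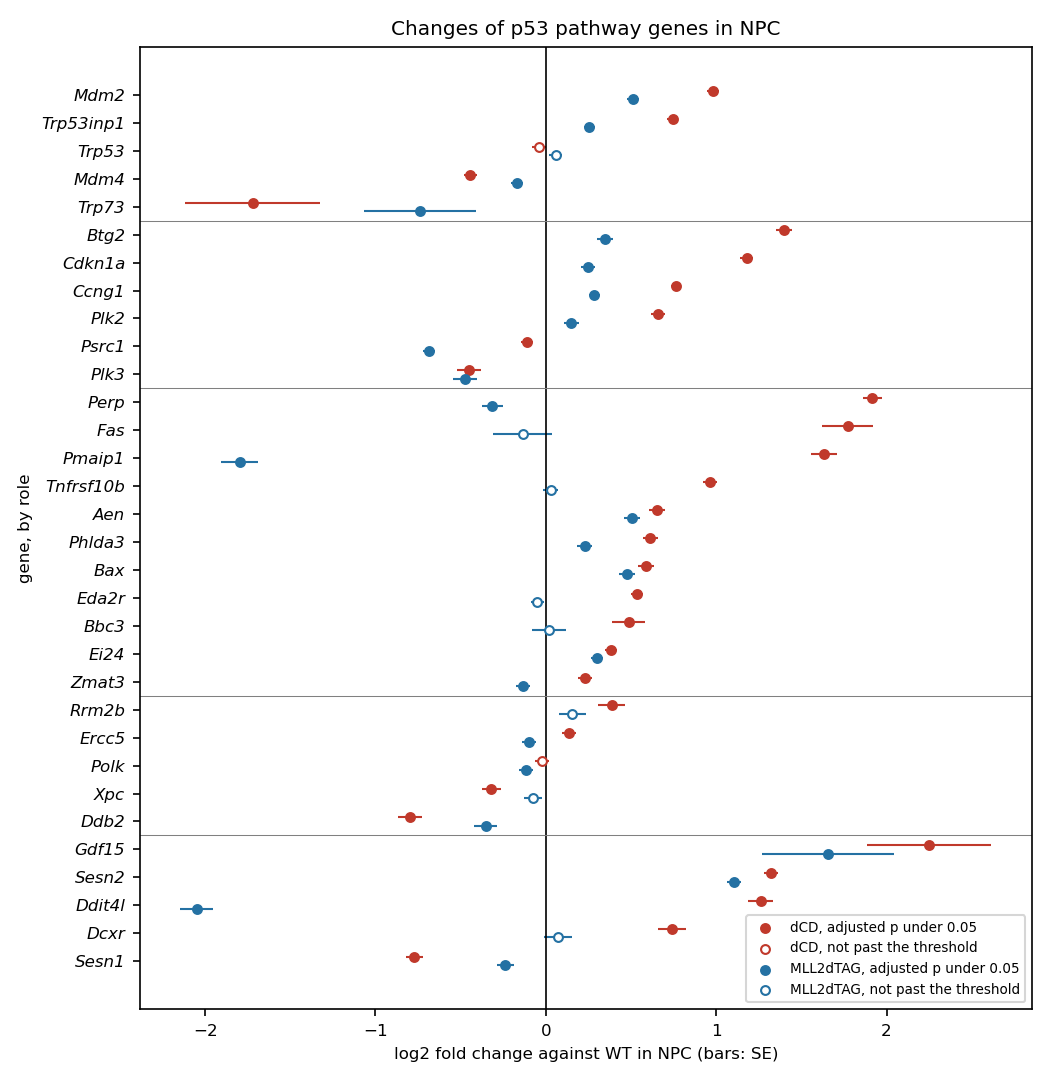
Log2 fold change against WT in NPC for the 32 genes, by role, in dCD (red) and MLL2dTAG (blue); bars are the standard error of the edgeR fit and open circles did not pass adjusted p 0.05. Perp, Pmaip1 and Ddit4l lie to the right of 0 in dCD and to the left in MLL2dTAG, whereas Sesn2 lies near 1 or above it in both.

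Among the genes of p53 itself and its feedback, Trp53 mRNA was not called in NPC. Its level was 127, 132 and 129.7 CPM in the 3 WT libraries, 134, 119 and 125 CPM in dCD and 138, 132 and 133 CPM in MLL2dTAG, and the groups overlapped. The log2 fold changes were -0.040 (SE 0.039, adjusted p = 0.41) in dCD and 0.058 (SE 0.038, adjusted p = 0.2) in MLL2dTAG by edgeR. Mdm2, the ligase that p53 induces and that degrades it, stood at 131, 136 and 136 CPM in WT, 265, 274 and 257 CPM in dCD and 194, 189.9 and 190.0 CPM in MLL2dTAG. The 3 groups were fully separated, with dCD highest and MLL2dTAG between. The rise of Mdm2 was 1.97-fold in dCD, a log2 fold change of 0.98 (SE 0.034, adjusted p = 4.6e-23), and 1.42-fold in MLL2dTAG, 0.51 (SE 0.034, adjusted p = 2.9e-15) (edgeR). Trp53inp1, a target that promotes phosphorylation of p53, rose from 258 ± 4.18 CPM (SD, n = 3) in WT to 433 ± 19.0 in dCD and 308 ± 5.51 in MLL2dTAG.

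The other regulators in this group fell. Mdm4, which binds p53 and blocks its activity, read 376, 377 and 374 CPM in WT, 267, 288 and 273 CPM in dCD and 345, 321 and 336 CPM in MLL2dTAG, again with no overlap between the groups. The log2 fold change of Mdm4 was -0.44 (SE 0.037, adjusted p = 1.1e-12) in dCD and -0.17 (SE 0.036, adjusted p = 0.00012) in MLL2dTAG (edgeR); the second was lost with offsets for GC content and length. Mdm2 and Mdm4 thus changed in opposite directions in both lines. Trp73, which encodes the p53 relative p73, was close to the limit of detection in NPC, with 48 counts over the 3 WT libraries, 14 over dCD and 32 over MLL2dTAG. Its fall was -1.72 in dCD, and its value of -0.74 in MLL2dTAG sat at the threshold and was lost in 10 of 15 alternatives, leaving out any MLL2dTAG replicate among them and WT replicates 1 and 3.

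The cell cycle genes gave the clearest difference between the lines in Btg2 and Cdkn1a. Cdkn1a encodes p21, the inhibitor of cyclin-dependent kinases whose upstream promoter is printed above. It was measured at 93.2, 90.3 and 87.96 CPM in WT NPC, 214, 199 and 201 CPM in dCD and 107, 106 and 108 CPM in MLL2dTAG. All dCD libraries lay above every other NPC library, and the MLL2dTAG libraries stood just above WT. The edgeR log2 fold changes were 1.18 (SE 0.040, adjusted p = 1.9e-23) in dCD, or 2.26-fold, and 0.25 (SE 0.040, adjusted p = 2.1e-06) in MLL2dTAG, or 1.19-fold. Btg2, an antiproliferative adaptor of the mRNA deadenylase, read 57.6, 53.6 and 53.96 CPM in WT, 144, 147 and 144 CPM in dCD and 67.0, 75.5 and 67.3 CPM in MLL2dTAG. It rose 2.64-fold in dCD, with a log2 fold change of 1.40 (SE 0.046, adjusted p = 6.9e-24), and 1.27-fold in MLL2dTAG, with 0.35 (SE 0.047, adjusted p = 5.1e-08) (edgeR).

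Ccng1, which encodes cyclin G1, stood at 420.0 ± 5.796 CPM (SD, n = 3) in WT NPC, 713 ± 7.25 in dCD and 512 ± 11.6 in MLL2dTAG. Plk2, a kinase of the polo-like family, followed the same order with 105 ± 2.59, 166 ± 6.94 and 117 ± 2.13 CPM; its call in MLL2dTAG was lost with upper quartile factors and with library totals alone. Its relative Plk3 went the other way. Plk3 read 22.7, 22.4 and 20.6 CPM in WT, 16.5, 15.4 and 16.1 CPM in dCD and 14.98, 15.6 and 16.7 CPM in MLL2dTAG, so that both lines lay below WT and overlapped each other. The log2 fold changes of Plk3 were -0.45 (SE 0.069, adjusted p = 8.5e-07) and -0.47 (SE 0.068, adjusted p = 2e-07) (edgeR), and the lines did not differ by the test (adjusted p = 0.81). Psrc1, which encodes a microtubule-binding protein, showed the reverse of the Cdkn1a pattern, with the larger change in MLL2dTAG: 220.4, 231 and 227 CPM in WT, 206, 211 and 212 CPM in dCD and 142, 140.1 and 139 CPM in MLL2dTAG. Psrc1 fell by 0.69 on the log2 scale in MLL2dTAG and by 0.11 in dCD, where the call was lost without the filter on low counts.

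**Figure D3:**
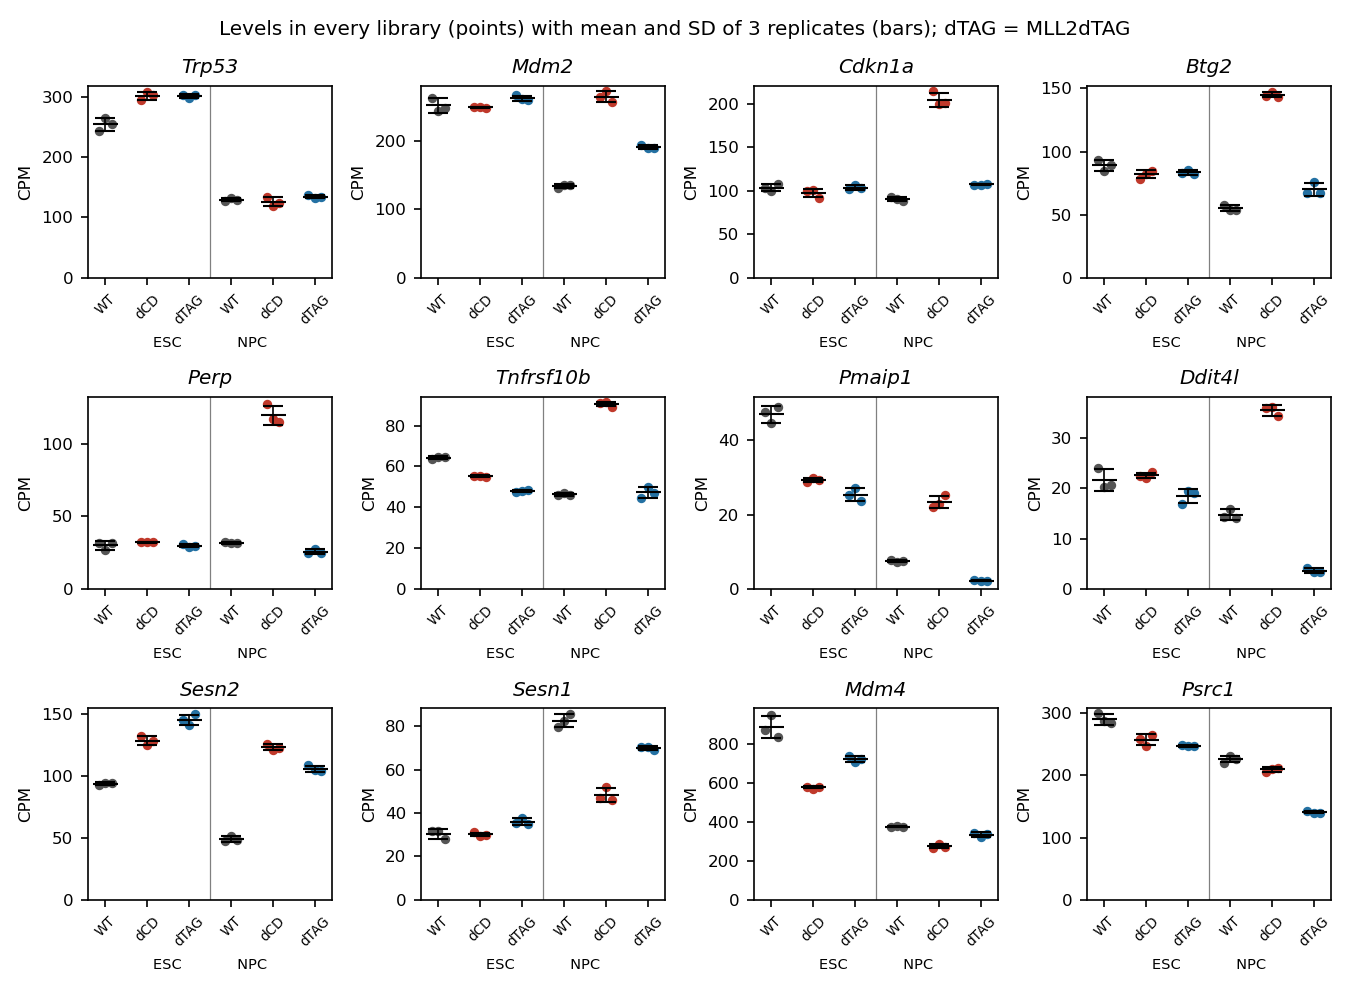
CPM of 12 of the genes in every library (points), with the mean and SD of 3 replicates (bars), for WT (grey), dCD (red) and MLL2dTAG (blue) in ESC and NPC; each axis starts at 0. In NPC the dCD points of Cdkn1a, Btg2, Perp and Tnfrsf10b stand far above both other groups, Pmaip1 and Ddit4l are high in dCD and low in MLL2dTAG, and Trp53 is level.

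The apoptosis genes carried some of the steepest rises in dCD NPC. Perp, a tetraspan membrane protein of desmosomes and a p53 target in apoptosis, had 32.5, 31.3 and 31.7 CPM in WT, 128, 118 and 115 CPM in dCD and 24.6, 27.4 and 24.6 CPM in MLL2dTAG. It rose 3.77-fold in dCD, a log2 fold change of 1.92 (SE 0.056, adjusted p = 2e-25), and fell in MLL2dTAG, at -0.31 (SE 0.060, adjusted p = 2.5e-05) by edgeR. Every dCD library was far above WT and every MLL2dTAG library was below it. Pmaip1, which encodes the BH3-only protein NOXA, read 7.79, 7.19 and 7.597 CPM in WT, 21.9, 22.9 and 25.2 CPM in dCD and 2.34, 1.99 and 2.19 CPM in MLL2dTAG. The log2 fold changes were 1.64 (SE 0.076, adjusted p = 1.7e-19), or 3.11-fold higher, in dCD and -1.80 (SE 0.11, adjusted p = 1.1e-16), or 3.48-fold lower, in MLL2dTAG (edgeR; 253 counts over the 3 MLL2dTAG libraries). Set directly against each other, the lines differed in Pmaip1 by -3.43 (SE 0.093, adjusted p = 1.1e-26) on the log2 scale, the widest gap among the 32 genes. Bbc3, which encodes the other BH3-only protein of this set, PUMA, did not follow Pmaip1: it rose to 29.5 ± 5.23 CPM (SD, n = 3) in dCD from 20.96 ± 1.74 in WT, with 1 dCD library at 35.5 CPM apart from the others, and was 21.2 ± 2.52 in MLL2dTAG, which was not called.

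The 3 genes of the tumour necrosis factor receptor family rose in dCD and were not called in MLL2dTAG. Fas, the receptor of Fas ligand, was a low gene with 2.25, 2.37 and 3.18 CPM in WT, 8.56, 9.55 and 8.595 CPM in dCD and 3.11, 2.08 and 2.01 CPM in MLL2dTAG. It rose 3.41-fold in dCD (1.77 (SE 0.15, adjusted p = 2.8e-12) by edgeR), and the WT and MLL2dTAG libraries overlapped. Tnfrsf10b, a receptor for the ligand TRAIL, read 45.9, 47.2 and 45.95 CPM in WT, 90.95, 91.4 and 89.2 CPM in dCD and 44.7, 49.99 and 46.99 CPM in MLL2dTAG. Its edgeR log2 fold change was 0.97 (SE 0.042, adjusted p = 2.2e-20) in dCD and 0.029 (SE 0.043, adjusted p = 0.58) in MLL2dTAG. Eda2r, a receptor of the same family that binds ectodysplasin A2, rose by 0.54 (SE 0.036) in dCD and was not called in MLL2dTAG at -0.050 (SE 0.036), a value that 4 alternatives called, 3 of them lower and the GC and length offsets higher.

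A second group of apoptosis genes rose in both lines. Bax, which forms pores in the mitochondrial outer membrane, read 61.5, 65.96 and 66.5 CPM in WT, 100.1, 93.8 and 97.6 CPM in dCD and 89.5, 93.1 and 87.2 CPM in MLL2dTAG. The log2 fold changes were 0.59 (SE 0.047, adjusted p = 5.4e-13) and 0.48 (SE 0.047, adjusted p = 6.1e-11) by edgeR. Both edited groups lay above WT. Aen, a nuclease that takes part in p53-dependent apoptosis, read 57.8, 53.4 and 52.8 CPM in WT, 92.8, 82.2 and 82.9 CPM in dCD and 79.4, 75.4 and 78.3 CPM in MLL2dTAG, changes of 0.65 (SE 0.049) and 0.51 (SE 0.049). Ei24, an endoplasmic reticulum protein, rose by 0.38 and 0.30 in dCD and MLL2dTAG, and Phlda3, an inhibitor of the kinase Akt, by 0.61 and 0.23. Zmat3, an RNA-binding zinc finger protein, rose by 0.23 in dCD and fell by 0.13 in MLL2dTAG.

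The repair genes were split in dCD NPC. Ddb2 and Xpc, which encode damage sensors of nucleotide excision repair, fell, and Ercc5, the repair nuclease XPG, and Rrm2b, the ribonucleotide reductase subunit that p53 induces, rose slightly. Ddb2 had 23.4, 25.2 and 24.97 CPM in WT, 14.1, 13.7 and 14.5 CPM in dCD and 18.5, 18.5 and 20.7 CPM in MLL2dTAG, and the groups were fully separated, with dCD lowest. Its edgeR log2 fold changes were -0.80 (SE 0.069, adjusted p = 3.2e-12) in dCD and -0.35 (SE 0.066, adjusted p = 1.7e-05) in MLL2dTAG. The changes of Xpc, Ercc5 and Rrm2b in dCD were -0.32, 0.14 and 0.39. The call of Ercc5 was lost with GC and length offsets, without NPC WT replicate 1 and without NPC dCD replicate 2. Polk, a translesion polymerase, was not called in dCD (-0.021 (SE 0.042)); its value of -0.11 in MLL2dTAG was called, turned to 0.0072 with GC and length offsets and lost its call without NPC WT replicate 1 or 3 or MLL2dTAG replicate 1 or 2. In MLL2dTAG none of the 5 repair genes rose, although Rrm2b was called higher (0.30) with the offsets. Ddb2, Ercc5 and Polk fell there, and the call of Ercc5 was lost in 6 of 15 alternatives, the offsets and leaving out NPC WT replicate 2 or 3 or any MLL2dTAG replicate.

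In the stress and metabolism group, the 2 sestrins, which restrain the growth kinase complex mTORC1, moved apart. Sesn2 read 47.6, 51.8 and 48.2 CPM in WT NPC, 126, 121 and 122 CPM in dCD and 109, 104 and 104 CPM in MLL2dTAG, so that both lines stood above WT without overlap. It rose 2.5-fold in dCD, with a log2 fold change of 1.32 (SE 0.040, adjusted p = 8.6e-25), and 2.15-fold in MLL2dTAG, with 1.10 (SE 0.040, adjusted p = 6.6e-23) (edgeR). Sesn1 instead read 79.6, 82.6 and 85.6 CPM in WT, 46.99, 51.8 and 46.1 CPM in dCD and 70.6, 70.7 and 69.01 CPM in MLL2dTAG. It fell by 0.77 on the log2 scale in dCD (SE 0.050, adjusted p = 1.5e-15) and by 0.24 in MLL2dTAG (SE 0.048, adjusted p = 6.1e-05, edgeR). Ddit4l, another inhibitor of mTORC1, changed in opposite directions in the lines, with 14.3, 15.9 and 14.05 CPM in WT, 35.9, 36.2 and 34.3 CPM in dCD and 4.09, 3.42 and 3.26 CPM in MLL2dTAG. That is 2.399-fold higher in dCD, 1.26 (SE 0.073, adjusted p = 7.6e-17), and 4.14-fold lower in MLL2dTAG, -2.05 (SE 0.096, adjusted p = 8.4e-20) (edgeR). Gdf15, a secreted stress signal, rose in both lines from a level near the limit of detection: the 3 WT libraries held 22 counts in all, dCD 104 and MLL2dTAG 78, and its log2 fold changes were 2.25 (SE 0.36) and 1.66 (SE 0.39). Dcxr, a carbonyl and xylulose reductase, rose by 0.74 (SE 0.081) in dCD and was not called in MLL2dTAG at 0.070 (SE 0.083).

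In ESC, more of the p53 pathway genes were lower than higher in both edited lines. In dCD ESC 6 genes rose, 19 fell and 7 were not called, while 48.3% of all genes were called (25.7% higher and 22.6% lower). In MLL2dTAG ESC 8 rose, 15 fell and 9 were not called, where 56.9% of all genes were called (28.7% higher and 28.2% lower). The medians were -0.17 and -0.067 on the log2 scale, beside 0.023 and -0.0011 over all genes. For MLL2dTAG the split narrowed to 10 higher and 13 lower with GC and length offsets (median -0.018, all genes: 0.065). Without the filter on low counts it was 9 higher and 13 lower (median -0.0086). All 5 repair genes fell in dCD ESC and 4 of the 5 in MLL2dTAG ESC, where the call of Ddb2 was lost without the filter on low counts and with GC and length offsets. The 6 genes that rose in dCD were Trp53, Ccng1, Bax, Sesn2, Phlda3 and Fas, and in MLL2dTAG, compared with the same WT libraries, Sesn1 and Dcxr were called higher as well. Mesenchymal markers summed to 464 to 579 CPM in ESC WT, 739 to 827 in dCD and 840.0 to 896 in MLL2dTAG, and ESC markers to 2728 to 2879, 2661 to 2778 and 3414 to 3526; their part in these results was not tested.

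Trp53 rose in both lines as ESC, from 243, 265 and 256 CPM in WT to 295, 308 and 303 CPM in dCD and 303, 298 and 303 CPM in MLL2dTAG. Every edited library was above every WT library. The log2 fold changes were 0.25 (SE 0.038, adjusted p = 1.2e-06) and 0.24 (SE 0.037, adjusted p = 9.3e-07) by edgeR. Its targets Mdm2 and Cdkn1a were not called in either line. Mdm2 read 264, 244 and 249.1 CPM in WT, 250.1, 250.3 and 248 CPM in dCD and 267, 261 and 261 CPM in MLL2dTAG, changes of -0.014 (SE 0.034) and 0.060 (SE 0.034). Cdkn1a read 104, 99.8 and 108 CPM in WT, 99.9, 101 and 92.2 CPM in dCD and 102, 107 and 103 CPM in MLL2dTAG, changes of -0.089 (SE 0.042) and 0.00040 (SE 0.041). For both genes the groups overlapped, and single alternatives called Mdm2 lower in dCD (-0.12 with GC and length offsets) and Cdkn1a lower in dCD (-0.12 without ESC WT replicate 2). In 4 alternatives Mdm2 was called higher in MLL2dTAG, by 0.074 to 0.13.

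Sesn2 showed the steepest rise in ESC among genes of at least 5 CPM. It stood at 92.8, 94.6 and 94.1 CPM in WT, 132, 125 and 128 CPM in dCD and 145, 141 and 149.7 CPM in MLL2dTAG, with log2 fold changes of 0.45 (SE 0.040, adjusted p = 9.5e-12) and 0.63 (SE 0.039, adjusted p = 4.4e-16) by edgeR. Phlda3 was 52.4, 51.2 and 55.4 CPM in WT, 60.9, 61.01 and 62.8 CPM in dCD and 69.8, 69.3 and 69.3 CPM in MLL2dTAG, rising by 0.22 (SE 0.048) and 0.39 (SE 0.047). In both genes the 3 groups were separated with MLL2dTAG highest. Ccng1 had 396, 369 and 384 CPM in WT, 447, 457 and 442 CPM in dCD and 424, 414 and 404 CPM in MLL2dTAG, a rise of 0.23 (SE 0.031) in dCD and of 0.11 (SE 0.031) in MLL2dTAG, where upper quartile scaling ended the call. Bax rose by 0.13 in dCD, a call that ended without ESC WT replicate 2 or dCD replicate 2 or 3 and with only the groups compared in the fit, and by 0.26 in MLL2dTAG. Dcxr was higher in MLL2dTAG only as long as ESC WT replicate 2 was kept (0.30 (SE 0.086) with all libraries, 0.17 without it). Fas was low, with 137 counts over the WT libraries, 310 over dCD and 341 over MLL2dTAG, and rose by 1.25 (SE 0.19) and 0.99 (SE 0.19).

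The genes that fell in ESC included both BH3-only genes and the p53 relative. Pmaip1 read 47.5, 44.6 and 49.01 CPM in WT, 28.8, 29.9 and 29.2 CPM in dCD and 25.1, 27.2 and 23.7 CPM in MLL2dTAG, with edgeR log2 fold changes of -0.68 (SE 0.065, adjusted p = 7.4e-11) and -0.89 (SE 0.064, adjusted p = 2.8e-14). Bbc3 read 40.4, 36.5 and 48.7 CPM in WT, 28.7, 24.8 and 26.8 CPM in dCD and 24.3, 21.9 and 22.8 CPM in MLL2dTAG, with -0.65 (SE 0.099, adjusted p = 1.1e-06) and -0.87 (SE 0.098, adjusted p = 1.6e-09) by edgeR. For both, all edited libraries lay below all WT libraries. Trp73 read 12.9, 14.9 and 14.2 CPM in WT, 6.92, 7.41 and 7.08 CPM in dCD and 8.76, 6.83 and 8.02 CPM in MLL2dTAG, which is -0.98 (SE 0.12) and -0.84 (SE 0.12). Mdm4 fell from 873, 951 and 838 CPM to 579, 571 and 579.9 CPM in dCD and 741, 709 and 724 CPM in MLL2dTAG. Its log2 fold change was -0.62 (SE 0.036) in dCD and -0.29 (SE 0.036) in MLL2dTAG. Eda2r fell, at -0.68 (SE 0.038) in MLL2dTAG, from 165, 164 and 158 CPM in WT to 98.3, 104 and 102 CPM, and by 0.35 on the log2 scale in dCD. Gdf15 fell in dCD (-0.94 (SE 0.21); 382 counts over WT and 189 over dCD) and was not called in MLL2dTAG.

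Tested against each other as ESC, the lines differed in 20 of the 32 genes. MLL2dTAG was higher than dCD in 13 of the 32 genes and lower in 7, with 12 not called, where 47.2% of all genes were called (23.4% higher and 23.7% lower), and this split turned to 7 higher and 10 lower with upper quartile scaling and to 18 higher and 3 lower with GC and length offsets. Mdm4 was higher in MLL2dTAG by 0.33 (SE 0.036). Rrm2b read 13.4, 13.5 and 12.01 CPM in dCD and 17.9, 15.9 and 18.6 CPM in MLL2dTAG, a difference of 0.43 (SE 0.086). Plk2 was lower in MLL2dTAG, at 44.3, 47.5 and 48.7 CPM against 62.9, 58.8 and 64.05 CPM in dCD, a difference of -0.40 (SE 0.049). Plk3 and Sesn1 were higher in MLL2dTAG by 0.28 and 0.26, and Eda2r, Ddit4l and Pmaip1 were lower, at -0.32, -0.29 and -0.21. With GC and length offsets the differences were 0.54 for Mdm4, 0.66 for Rrm2b, -0.24 for Plk2 and -0.098 for Eda2r, Ddit4l was no longer called at -0.092, and Pmaip1 turned to 0.053. The call of Pmaip1 was also lost without the filter on low counts and without ESC MLL2dTAG replicate 3.

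Whether the change in a line differed between the stages was tested as its change in NPC minus its change in ESC. For dCD this difference was above 0 in 24 of the 32 genes, below 0 in 3 and not called in 5, where 42.9% of all genes were called (20.0% above 0 and 22.9% below). The median was 0.66 (all genes: -0.044). None of these 27 calls was lost in any alternative. Of the 23 genes higher in dCD NPC, 12 were lower in dCD ESC, 6 were not called there and 5 were higher there. Over all genes tested, 22.6% were lower and 25.7% higher in dCD ESC. The same shares among all genes higher in dCD NPC were not counted, so no pattern particular to the 32 genes is read from this. Among those 12, the fall in ESC kept its call in only 8 of 15 alternatives for Btg2 and in 13 of 15 for Aen. The gap was 1.27 (SE 0.058, adjusted p = 4.2e-19) for Cdkn1a, 1.00 (SE 0.048, adjusted p = 2.2e-18) for Mdm2 and 1.52 (SE 0.066, adjusted p = 8.8e-20) for Btg2 by edgeR. Pmaip1 and Trp53inp1, lower in ESC and higher in NPC, had gaps of 2.32 (SE 0.10) and 1.05 (SE 0.045). Perp, level in ESC, had one of 1.81 (SE 0.085). The 3 genes below 0 were Sesn1 (-0.76), Ddb2 (-0.34) and Trp53 (-0.29), which rose in ESC and was not called in NPC.

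For MLL2dTAG the difference between the stages was above 0 in 17 genes, below 0 in 9 and not called in 6, where 49.0% of all genes were called (26.4% above 0 and 22.6% below), and without the filter on low counts the split was 12 above and 11 below. The median was 0.16 (all genes: 0.046). Bbc3 and Trp53inp1, which fell in MLL2dTAG ESC, had gaps of 0.88 (SE 0.14, adjusted p = 1.9e-06) and 0.68 (SE 0.045, adjusted p = 5.3e-15) by edgeR. Ddit4l, Fas and Pmaip1 had gaps below 0, at -1.83, -1.12 and -0.91. For Mdm2 the gap was 0.45 (SE 0.048), and for Cdkn1a it was 0.25 (SE 0.058), lost without the filter on low counts.

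**Figure D4:**
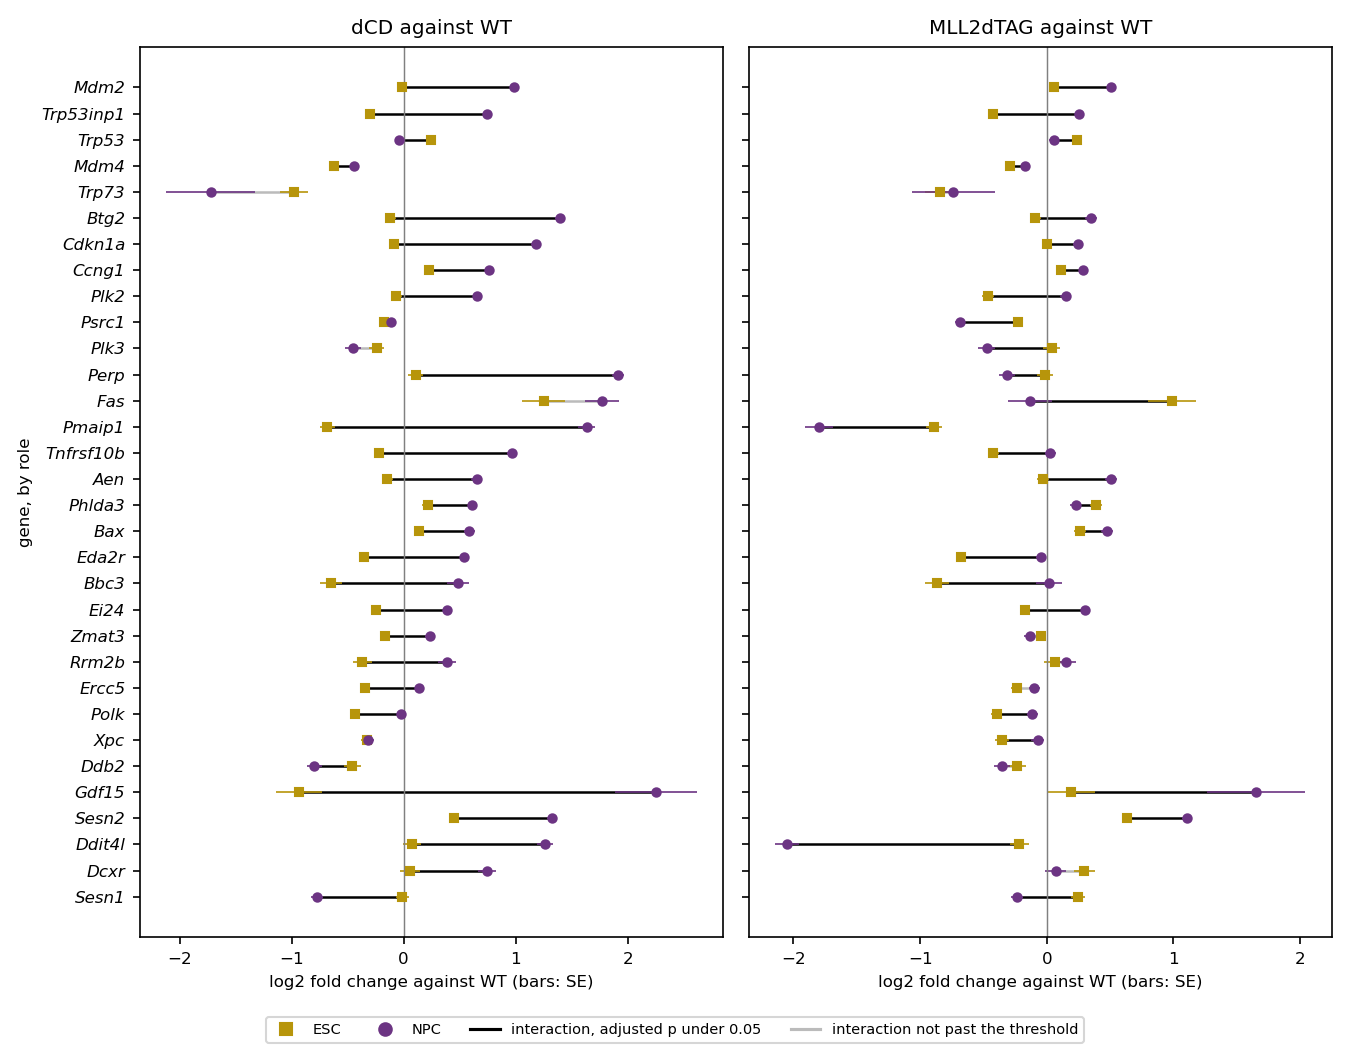
Log2 fold change against WT of the 32 genes in ESC (squares) and NPC (circles) for dCD (left) and MLL2dTAG (right), with bars for the standard error; a black line joins the stages where their difference had adjusted p under 0.05 and a grey line where it did not. In dCD 24 of the 32 circles lie to the right of their square with a black line, whereas MLL2dTAG shows lines in both directions.

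In WT cells most of these genes were lower after differentiation. From ESC to NPC 23 of the 32 fell, 6 rose and 3 were not called, where 79.5% of all genes were called (39.1% higher and 40.4% lower), and the median was -0.47 (all genes: -0.037). All 5 genes of the p53 family and feedback group fell. Trp53 went from 243, 265 and 256 CPM in ESC to 127, 132 and 129.7 CPM in NPC, a log2 fold change of -0.98 (SE 0.038, adjusted p = 1e-22) by edgeR. Mdm2 went from 252 ± 10.4 to 134 ± 2.81 CPM (SD, n = 3), -0.91 (SE 0.035, adjusted p = 4.1e-23) by edgeR, and Mdm4 from 887 ± 57.4 to 375 ± 1.396, -1.24 (SE 0.037). Pmaip1 and Trp73 fell furthest among genes of at least 5 CPM, with Pmaip1 at 47.03 ± 2.27 CPM in ESC and 7.52 ± 0.305 in NPC (-2.64 (SE 0.074)) and Trp73 at 14.02 ± 1.04 and 0.457 ± 0.1399 (-4.93 (SE 0.18)). Gdf15 fell by 4.51 on the log2 scale, from 382 counts over 3 libraries to 22, and Aen by 1.04.

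Cdkn1a hardly changed with differentiation: its log2 fold change was -0.20 (SE 0.042), and the call was lost without the filter on low counts and with GC and length offsets. Sesn1 rose from 31.6, 31.9 and 27.8 CPM in ESC to 79.6, 82.6 and 85.6 CPM in NPC, a log2 fold change of 1.44 (SE 0.054, adjusted p = 2.2e-23) by edgeR, and Plk2 from 62.9, 62.1 and 69.3 CPM to 108, 104 and 103 CPM, 0.70 (SE 0.046). Phlda3, Ddb2, Fas and Ccng1 rose by 0.23, 0.21, 0.57 and 0.13; the call of Ddb2 ended with upper quartile scaling, that of Fas without NPC WT replicate 3, and Ccng1 turned to -0.029 with upper quartile scaling. Upper quartile scaling shifted the median of all genes in this comparison to -0.12. For Mdm2 the dCD NPC libraries (265, 274 and 257 CPM) lay at the level of WT ESC (264, 244 and 249.1 CPM), while for Perp, Btg2 and Cdkn1a they lay above all ESC libraries.

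Further genes of the pathway were counted from 4 lists, to be read beside the shares of all genes: 26.7% higher and 26.8% lower in dCD NPC, 33.3% and 28.4% in MLL2dTAG NPC, 25.7% and 22.6% in dCD ESC, and 28.7% and 28.2% in MLL2dTAG ESC. Of 32 further p53 targets, 31 were tested, and 19 rose and 4 fell in dCD NPC (median 0.33), with Thbs1 (2.31), a matrix gene, highest, while Cd82 (-1.43), a tetraspanin, and Fdxr (-0.66), the ferredoxin reductase, fell. In MLL2dTAG NPC 14 of the 31 rose and 9 fell (median 0.021), with Lif (1.56) and Thbs1 (1.38) highest. In ESC 11 rose and 9 fell in dCD, and 15 rose and 9 fell in MLL2dTAG, so that the 9 lower genes (29.0% of 31) were near the share of all genes in MLL2dTAG at both stages. Thbs1 also answers to other signals, which were not examined.

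Genes that are repressed through p21 and the DREAM complex, 16 mitotic genes such as Ccnb1, Cdk1 and Plk1, were lower in dCD NPC without exception (16 of 16, median -0.47), also in all 15 alternatives. Cenpa, the centromeric histone, had the lowest value at -0.84, followed by Kif23, a kinesin of cytokinesis, at -0.74. In MLL2dTAG NPC 13 of the 16 fell and 2 rose (median -0.34), with Mybl2 higher by 0.80. Tested against dCD NPC, MLL2dTAG was the higher line for 10 of the 16 (all genes: 31.6%), a count that ran from 6 to 14 over the alternatives. The same genes were mostly lower in ESC too, with 9 lower and 3 higher in dCD and 11 lower and 1 higher in MLL2dTAG (medians -0.18 and -0.18), where Cdkn1a was not called; over the alternatives the ESC counts ran from 9 to 12 lower and 0 to 4 higher in dCD and from 7 to 12 lower in MLL2dTAG. In WT differentiation 13 of them fell, where 40.4% of all genes were lower.

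Of 24 p53 regulators, 5 rose and 10 fell in dCD NPC (median -0.17), and 11 rose and 7 fell in MLL2dTAG NPC (median -0.013), where the alternatives gave 7 to 11 higher and 6 to 10 lower. Cdkn2a, whose ARF product inhibits MDM2, was the regulator with the largest rise in each of the 4 comparisons among genes of at least 5 CPM. Its log2 fold change was 1.15 in dCD ESC, 1.25 in MLL2dTAG ESC, 1.70 in dCD NPC and 1.53 in MLL2dTAG NPC. In NPC this was a change from 16.6 ± 2.37 CPM (SD, n = 3) in WT to 54.1 ± 7.76 in dCD and 47.9 ± 2.93 in MLL2dTAG. The counts do not separate its ARF and p16 transcripts. The checkpoint kinase gene Chek1 was lower in dCD NPC (-0.44), as was Ppp1r13b (-1.0), a p53 cofactor. In ESC 5 regulators rose and 5 fell in dCD, and 7 rose and 9 fell in MLL2dTAG.

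The last list held 13 genes, which were Atf4 itself and targets of ATF4, the transcription factor of the integrated stress response. It was counted because Sesn2 and Gdf15 answer to ATF4 as well and are on both lists. In MLL2dTAG NPC 9 of the 13 rose and 2 fell (median 1.10), with Chac1 at 2.52 and Atf3 at 2.34. The 2 that fell were Ddit4 (-1.83) and Vldlr (-0.505). Atf4, one of the 13, was 215 ± 1.72 CPM there against 80.8 ± 1.802 in WT (SD, n = 3). In dCD NPC 7 rose and 3 fell (median 0.33), with Atf3 at 1.70, and Asns (-0.187) and Psat1 (-0.139) among those that fell. In ESC 7 rose and 2 fell in MLL2dTAG, and 5 rose and 4 fell in dCD. Ddit4 was lower in both lines as ESC, at -0.998 in MLL2dTAG and -0.734 in dCD. The part of ATF4 in the rise of Sesn2 and Gdf15 was not tested.

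**Figure D5:**
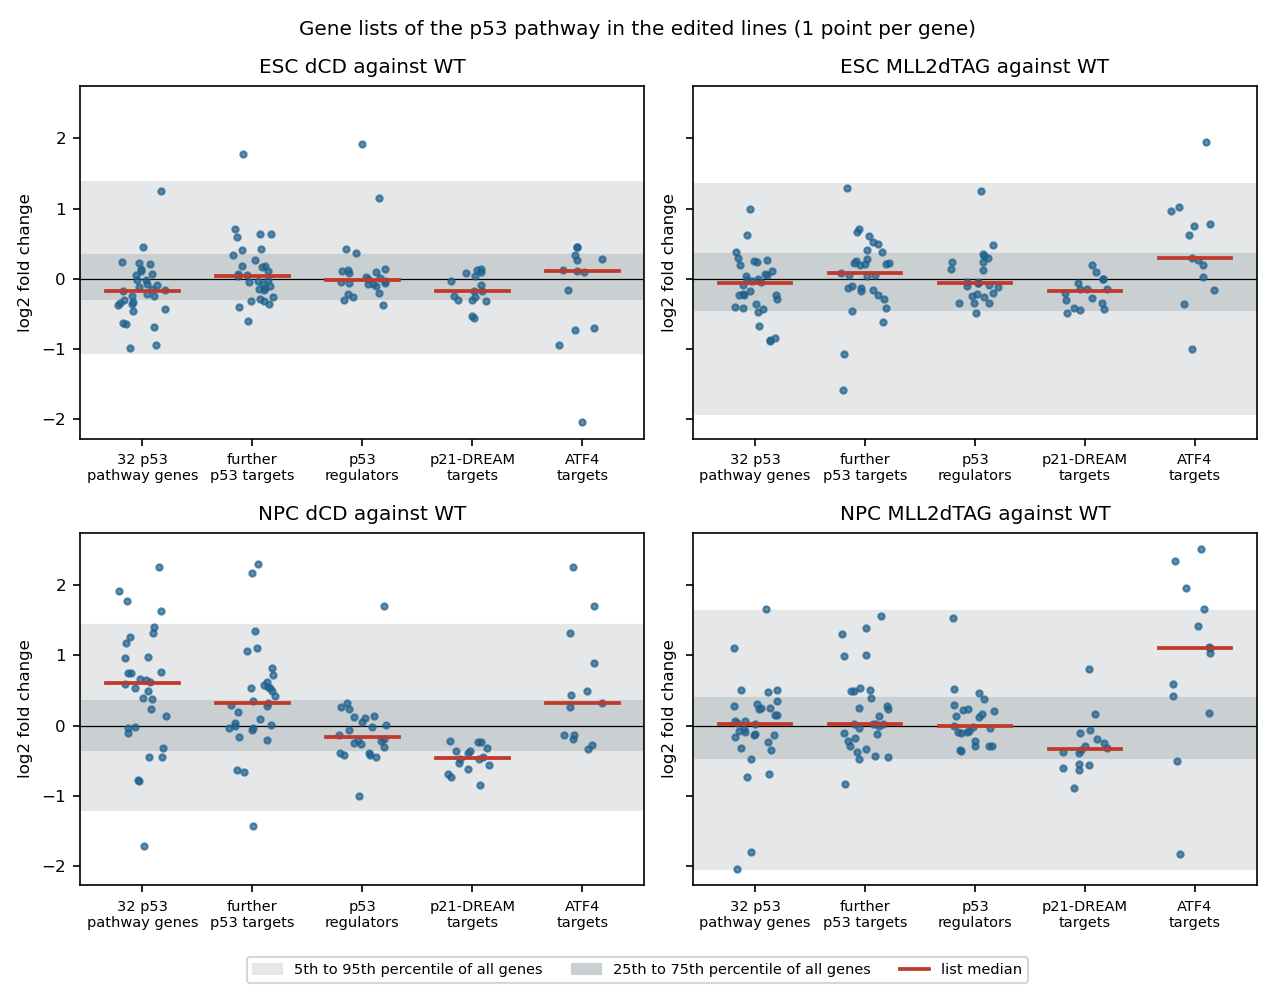
Log2 fold change against WT (1 point per gene) for the 32 genes and for 4 further lists in each edited line and stage; red lines are list medians and grey bands the middle 50% and 90% of all genes tested. In NPC dCD the 32 genes have a median of 0.60 and the p21-DREAM genes one of -0.47. In NPC MLL2dTAG the ATF4 targets, with Atf4 included, have the highest median at 1.10.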

How the data were processed

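The 32 genes, the further lists and the tests were chosen with earlier results of these data known, so none of them is independent evidence. The values are read counts per gene, which the authors deposited without normalization. HTSeq is named in the submitters' processing notes without a version; the sources used here do not name the aligner, genome build or strand setting behind this table. The library kit was TruSeq Stranded mRNA, per the labels' protocols. Even values outnumbered odd ones among low counts (60.8% to 66.5% of counts from 1 to 10, against 48.9% to 50.4% of counts over 1000), so halved counts were tried as an alternative. All 37 mitochondrial genes were at 0 counts. A further 6 columns of the table, whose names repeat, and the other count table were not used here, which leaves out 18 of 36 samples in 14 groups.

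The analysis used edgeR 4.0.16 in R 4.3.3: filterByExpr by group (20511 genes), TMM factors (0.967 to 1.05) and one quasi-likelihood fit of 6 group means to 18 libraries (12 residual degrees of freedom). The F test was two-sided, with Benjamini-Hochberg adjustment over all genes and calls at adjusted p under 0.05. The standard error (SE) of a log2 fold change is its size divided by the root of F. CPM use TMM factors. Alternatives for the scaling were DESeq2 size factors (the RLE method, run in edgeR), upper quartile factors and library totals. Further alternatives were the Wald test of DESeq2 1.42.0, no filter, only the groups compared, a replicate block, halved counts and each replicate left out. Offsets for GC content and length were added after the data were seen.

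Genes were named by a rule: Trp53, Cdkn1a, Mdm2 and, per comparison of 2 groups, the 4 highest and 4 lowest changes, or fewer, of called genes whose groups did not overlap and averaged 5 CPM or more, and per interaction the 3 highest and 3 lowest called genes. Other genes of the 32 are described by role, and genes of the other lists by the same rule with at most 2 in each direction; the level of Atf4 was added after its value was seen. Of the 32 genes, Bax shares exon bases with another gene on the same strand and 6 (Cdkn1a, Ddb2, Ei24, Plk3, Rrm2b, Trp73) with one on the opposite strand in GENCODE M21; reads of such pairs may not be separated. Cop1 is listed as Rfwd2. Reads are not independent molecules. Promoters are RefSeq sequences of GRCm38.p6.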

Additional observations from a re-analysis of the deposited data

Results flagged for a closer look

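For 12 combinations of a gene and a line the change against WT differed between the stages by a test of the difference itself (edgeR quasi-likelihood interaction, adjusted over all genes; the 3 highest and 3 lowest called genes per line). Values are the log2 change in NPC minus that in ESC over 12 libraries. In dCD they were 3.19 for Gdf15 (adjusted p = 8.1e-08), 2.32 for Pmaip1 (adjusted p = 8.8e-20) and 1.81 for Perp (adjusted p = 8e-19). Below 0 in dCD were Sesn1 at -0.762 (adjusted p = 4.4e-10), Ddb2 at -0.339 (adjusted p = 0.0065) and Trp53 at -0.286 (adjusted p = 4.1e-05). In MLL2dTAG the values were 1.46 for Gdf15 (adjusted p = 0.005), 0.883 for Bbc3 (adjusted p = 1.9e-06) and 0.675 for Trp53inp1 (adjusted p = 5.3e-15). Below 0 in MLL2dTAG were Ddit4l at -1.83 (adjusted p = 8.5e-15), Fas at -1.12 (adjusted p = 0.00038) and Pmaip1 at -0.905 (adjusted p = 2.6e-07). Pmaip1 was thus on opposite sides in the lines, 2.32 in dCD and -0.905 in MLL2dTAG. Gdf15 rests on few counts in NPC, with 22 over the 3 WT libraries.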

How the results depend on the processing

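The number of the 32 genes called stayed within 1.5 times its value in all 147 recomputed counts of the 9 comparisons. The counts ran from 29 to 30 for dCD and 21 to 25 for MLL2dTAG against WT in NPC, 22 to 27 and 22 to 24 in ESC, 27 to 30 for WT differentiation, 27 to 30 and 23 to 27 for the stage differences of dCD and MLL2dTAG, and 15 to 24 and 25 to 29 for the lines against each other in ESC and NPC. With each replicate left out in turn they were 29 to 30 and 21 to 23 in NPC and 22 to 25 and 22 to 24 in ESC against WT. Of the alternative values of genes named by the rule, 1329 kept direction and side of the threshold, 17 lost the call and 1 reversed: Pmaip1 in MLL2dTAG against dCD ESC, 0.053 with offsets for GC content and length, beside -0.21. Outside that rule, Polk in MLL2dTAG NPC (0.0072), Ccng1 in WT differentiation (-0.029), and Ccng1 and Trp53inp1 between the lines in ESC (0.11 and 0.12) also turned sign in 1 alternative each. The offsets moved the median of all genes to 0.10 in ESC and 0.13 in NPC between those lines. Trp53 in MLL2dTAG against dCD NPC, at 0.097, lost its call in 9 of 15 alternatives (NPC dCD replicates 2 and 3 and MLL2dTAG replicate 1 among those left out), so no difference is read from it.

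Groups share replicate numbers, but same-numbered libraries did not deviate together over all genes tested (correlations of -0.028 to 0.026). These correlations could miss a shared batch that moved only part of the genes. With the replicate block 30 genes were called for dCD and 23 for MLL2dTAG in NPC, 25 and 23 in ESC, 29 for WT differentiation, 27 and 26 for the stage differences, and 19 and 28 between the lines in ESC and NPC. Depth limits Trp73 and Gdf15, whose lowest counts in a library were 4 and 5.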
